A study of Homo sapiens with 12 samples.

Results

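CLEC7A and 9 other C-type lectin genes of myeloid cells were followed through the differentiation of a human monocytic line with and without a vector carrying EVI1. The 10 genes (CLEC7A, CLEC4A, CLEC4D, CLEC4E, CLEC5A, CLEC12A, CLEC10A, CLEC2B, CD209 and MRC1) were chosen by name from among 19775 genes with a probe set assigned to a single gene. All 10 had at least 1 such probe set, and where a gene had several, the one with the highest mean over the 12 arrays stood for it. Total RNA was measured on Affymetrix U133 Plus 2.0 arrays in U937, an established myelomonocytic cell line, and the values are log2 RMA expression values. Cells transduced with the empty vector received the solvent ethanol or 50 ng/ml of TPA for 24 h, a protein kinase C activator under which the line takes on macrophage features. Cells transduced with the EVI1 expression vector received the same 2 treatments, so that there were 4 groups of 3 arrays. The replicates are described as biological, which leaves unsaid if each came from its own transduction, so the p-values measure the spread between these samples only. Neither the promoter of the vector nor the number of clones behind each population is given in the sources used here.

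The EVI1-labelled cells are named by their label, because the arrays did not show the transcript. The 5 probe sets for MECOM, the locus that encodes EVI1, lay between 2.59 and 3.32 on every array, and the smallest limma adjusted p between the populations was 0.10. Whether these probe sets cover the sequence carried by the vector was not tested. Arrays of a group correlated at 0.993 to 0.998 over the 19775 genes, with 1 probe set for each. All 9 measured markers of the myelomonocytic line lay above 5.07, the lowest array median, in at least 1 group, and a mean below that level is treated here as not shown to be above background. The dendritic cell markers CD1A, CD1B, FCER1A, CCR7, LAMP3 and XCR1, the lymphocyte markers CD3E, CD2 and MS4A1, the megakaryocyte marker PF4 and the macrophage marker MSR1 lay below it in every group, as did 4 of 6 epithelial and fibroblast markers. The other members of these lists reached it. Highest group means were 7.38 for COL1A1 and 6.10 for KRT8 among the epithelial and fibroblast markers. They were 5.54 for CD3D, 5.77 for CD79A, 6.08 for ITGA2B, 6.83 for GP9 and 5.17 for FLT3. CD1C, a dendritic cell marker, had means of 5.64 and 5.85 in ethanol and 6.61 and 6.11 in TPA, empty vector before EVI1-labelled. It rose by 0.97 and 0.26 (limma adjusted p 2.71e-07 and 0.0215), with an interaction of -0.70 (adjusted p 0.0080), and its part in the lectin differences was not tested. All 5 natural killer cell markers and both measured erythroid markers reached it in at least 1 group. In bulk RNA, fewer cells that express a gene and less of its RNA per cell cannot be told apart.

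C-type lectin receptors bind sugars, lipids or proteins through a shared fold and sort into families by the signal they carry. CLEC7A (Dectin-1), the receptor for fungal beta-glucan, signals through a short tyrosine motif of its own, SYK and CARD9 toward NF-kB. CLEC4E (Mincle) and CLEC4D reach SYK through the adaptor FCER1G, and CLEC5A through the adaptor TYROBP (DAP12), whereas CLEC4A and CLEC12A carry inhibitory motifs that recruit phosphatases such as PTPN6. CD209 (DC-SIGN), MRC1 (the mannose receptor) and CLEC10A take up glycans and are known from dendritic cells and macrophages, and CLEC2B is the ligand of the natural killer receptor NKp80, encoded by KLRF1. CLEC7A, CLEC4A, CLEC4D, CLEC4E, CLEC12A and CLEC2B lie on chromosome 12, while CLEC5A is on 7, MRC1 on 10, CLEC10A on 17 and CD209 on 19.

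The promoters of 4 members (CLEC5A, CLEC4E, CLEC12A and CD209) were found in the RefSeq promoter table of build GRCh38.p14. Those of CLEC5A and CLEC12A are shown. CLEC5A rose with TPA by different amounts in the 2 populations. CLEC12A kept nearly 1 level in all 4 groups on its brightest probe set, while another probe set rose with TPA by 0.46 and 0.42. Each covers the 250 bases before the annotated start, 5′ to 3′ on the strand of the gene. Capitals mark matches to the motifs searched on both strands.
CLEC5A, chr7:141946975-141947224, minus strand: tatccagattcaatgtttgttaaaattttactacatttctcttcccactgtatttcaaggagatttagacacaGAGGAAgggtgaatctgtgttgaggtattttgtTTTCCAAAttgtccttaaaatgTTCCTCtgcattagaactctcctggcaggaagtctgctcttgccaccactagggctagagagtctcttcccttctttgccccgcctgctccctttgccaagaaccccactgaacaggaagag
CLEC12A, chr12:9971159-9971408, plus strand: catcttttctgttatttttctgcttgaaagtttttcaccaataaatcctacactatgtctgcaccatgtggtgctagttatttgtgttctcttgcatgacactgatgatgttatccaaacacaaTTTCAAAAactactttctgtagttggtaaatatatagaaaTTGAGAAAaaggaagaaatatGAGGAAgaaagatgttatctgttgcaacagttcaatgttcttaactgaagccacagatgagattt
The CLEC5A window held the PU.1 core GAGGAA from -177 to -172, the C/EBP half-site pair TTNCNNAA from -144 to -137 and PU.1 again, on the other strand, from -122 to -117. The CLEC12A window held the C/EBP motif from -126 to -119 and from -86 to -79, and the PU.1 core from -65 to -60. The C/EBP motif also occurred 3 times in the CLEC4E window, beside 1 PU.1 core, and 1 time in that of CD209. No 2 matches overlapped. Neither the AP-1 motif TGANTCA nor GATAAGA, part of a motif described for EVI1, occurred in the 4 windows. Among 35116 promoters cut to the same 250 bases, 23.6% held the PU.1 core, 33.2% the C/EBP motif, 6.57% AP-1 and 1.84% GATAAGA. A match describes letters in the window and is not evidence of binding.

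CLEC7A was the member with the largest rise under TPA, 22.3-fold in empty vector cells and 4.0-fold in EVI1-labelled cells. In ethanol it read 4.07, 4.37 and 3.43 in empty vector cells (mean 3.96 ± 0.48, SD, n = 3) and 4.05, 3.78 and 3.92 in EVI1-labelled cells (3.92 ± 0.14). In TPA it read 8.04, 8.84 and 8.43 in empty vector cells (8.44 ± 0.40) and 5.47, 5.57 and 6.71 in EVI1-labelled cells (5.92 ± 0.69). All 3 empty vector arrays in TPA lay above all 3 EVI1-labelled arrays in TPA, these lay above all 6 ethanol arrays, and the 2 ethanol groups overlapped. The ethanol arrays were all below 5.07, so the sizes of the rises are uncertain, while the difference between the populations in TPA was measured above that level.

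On the log2 scale CLEC7A rose by 4.48 ± 0.31 (SE; 95% interval 3.82 to 5.14) with TPA in empty vector cells, with a limma adjusted p of 2.26e-08. It rose by 2.00 ± 0.31 in EVI1-labelled cells (1.34 to 2.66, adjusted p 8.25e-05). In TPA it was lower in EVI1-labelled than in empty vector cells by a difference of -2.52 (-3.18 to -1.86, adjusted p 1.23e-04). In ethanol the same difference was -0.04, with an interval of -0.70 to 0.62 and an adjusted p of 0.98. The difference between the 2 responses, tested as an interaction, was -2.48 ± 0.43 (-3.41 to -1.55, adjusted p 0.0099), and it passed the threshold of 0.05 without any 1 of the 12 arrays, at -2.88 to -2.22. The order of the levels was thus empty vector TPA, EVI1-labelled TPA and then both ethanol groups, which did not differ beyond their spread. With the mean of all 6 CLEC7A probe sets in place of the brightest, the rises were 1.93 and 0.66 and the interaction -1.27, and the calls held.

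The 6 probe sets of CLEC7A differed in how much they showed. Tested among all 41091 single-gene probe sets, of which 38.6% and 35.2% were called for TPA in the 2 populations, 2.12% and 8.59% between populations in ethanol and TPA and 1.31% for the interaction, the brightest and 2 more were called lower in the EVI1-labelled response. On the probe set ranked 3 by its mean the rise was 3.89 (adjusted p 1.99e-09) in empty vector cells, from 2.24 to 2.70 on the ethanol arrays to 6.17 to 6.42 in TPA. In EVI1-labelled cells it was 1.23 (adjusted p 2.11e-04), to 3.14 to 4.18. Neither population's groups overlapped on this probe set, and its interaction was -2.65 (adjusted p 5.52e-04). On the one ranked 2 the rises were 2.21 and 0.70, and the interaction was -1.51 (adjusted p 0.0047). A dimmer one, ranked 4, rose by 0.85 in empty vector cells (adjusted p 6.52e-04), and its interaction of -0.63 was not called (adjusted p 0.285). That one and the remaining 2 stayed below 5.07 on all arrays, and the remaining 2 passed no test. In EVI1-labelled cells the TPA means were 4.85 and 3.66 on the probe sets ranked 2 and 3. Their rises in that population are thus not shown above background, and the sizes of their interactions are uncertain. CLEC7A has several splice forms, and which of them each probe set reads was not examined.

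**Figure D1:**
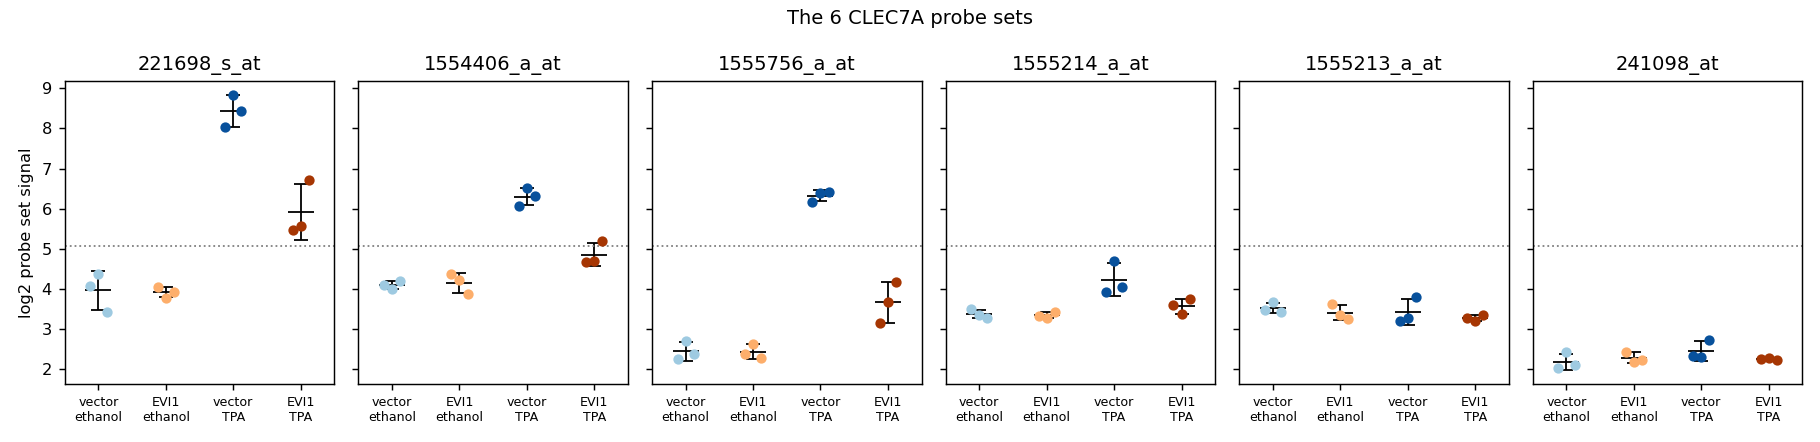
Log2 RMA values of the 6 CLEC7A probe sets on each of the 12 arrays, by group, with bars for the mean ± SD of 3 arrays and a dotted line at 5.07, the lowest array median. The brightest probe set reads 8.04 to 8.84 in empty vector cells under TPA and 5.47 to 6.71 in EVI1-labelled cells, and 3 of the 6 show the same order of groups with an interaction past the threshold.

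CLEC5A, which couples to TYROBP and is known for its part in inflammatory responses to flaviviruses, was bright in every group and rose 4.75-fold with TPA in empty vector cells. It read 9.61, 9.31 and 9.58 there in ethanol (9.50 ± 0.17) and 11.75, 11.72 and 11.77 in TPA (11.75 ± 0.03). In EVI1-labelled cells it read 9.02, 8.72 and 8.78 in ethanol (8.84 ± 0.16) and 9.53, 8.91 and 9.68 in TPA (9.37 ± 0.41). The empty vector TPA arrays stood above all others, and in EVI1-labelled cells the 2 treatments overlapped, replicate 2 in TPA lying under replicate 1 in ethanol. Of the EVI1-labelled TPA arrays, 1 lay below, 1 within and 1 above the range of empty vector cells in ethanol.

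The CLEC5A rise was 2.25 ± 0.16 in empty vector cells (1.90 to 2.60, limma adjusted p 4.13e-08) and 0.53 ± 0.16 in EVI1-labelled cells (0.18 to 0.88, adjusted p 0.0165). EVI1-labelled cells were lower by a difference of -2.37 in TPA (-2.72 to -2.02, adjusted p 2.24e-06), and the interaction was -1.71 ± 0.23 (-2.21 to -1.22, adjusted p 0.0018). The interaction passed the threshold without any 1 array, at -1.87 to -1.48. The smaller CLEC5A calls were less steady. The rise in EVI1-labelled cells lost its call without EVI1-labelled TPA replicate 1 or 3 or EVI1-labelled ethanol replicate 2 or 3 (adjusted p 0.065, 0.080, 0.065 and 0.053). The difference of -0.66 (-1.01 to -0.31, adjusted p 0.042) between the populations in ethanol, whose arrays did not overlap, lost it without any 1 of 9 arrays (adjusted p up to 0.18), all but those of EVI1-labelled cells in TPA. CLEC5A has 1 single-gene probe set, so no second one could be compared.

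**Figure D2:**
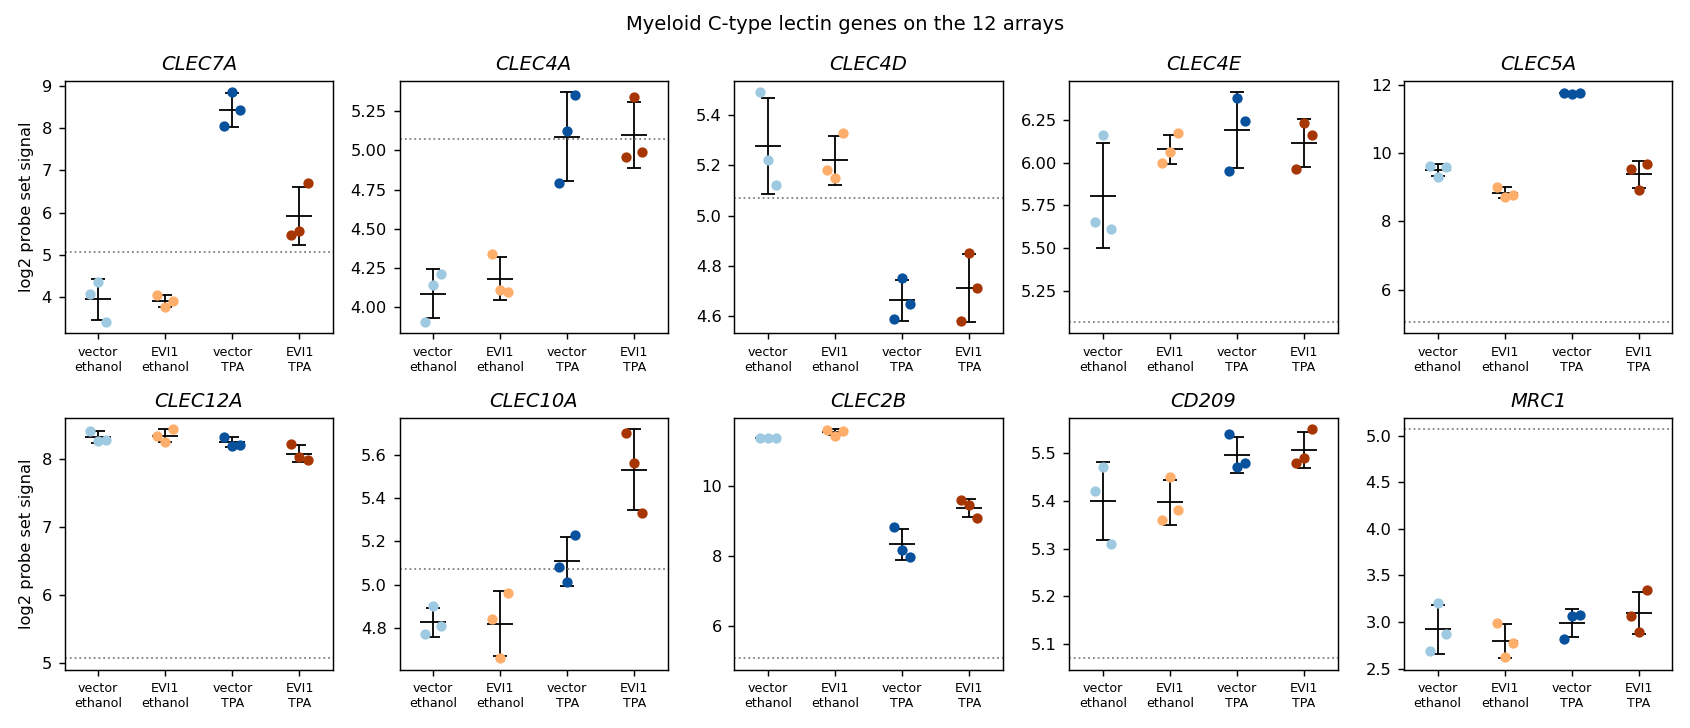
Log2 RMA values of the 10 C-type lectin genes on each of the 12 arrays, by group, with bars for the mean ± SD of 3 arrays and a dotted line at 5.07, the lowest array median. CLEC7A and CLEC5A stand highest in empty vector cells under TPA, and CLEC2B is lowest there. On the brightest probe set, the one shown, CLEC12A, CD209 and MRC1 keep nearly the same level in all 4 groups. Another CLEC12A probe set, not shown, rose with TPA.

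CLEC4E and CLEC4D, which form a receptor for mycobacterial glycolipids with FCER1G, moved little and in different directions. CLEC4D fell by 0.61 on the log2 scale with TPA in empty vector cells (SE 0.11, limma adjusted p 2.36e-04) and by 0.51 in EVI1-labelled cells (adjusted p 0.0013). It read 5.12 to 5.49 on the 6 ethanol arrays and 4.58 to 4.85 on the 6 TPA arrays, without overlap, and its TPA means lay under 5.07. On the second CLEC4D probe set the differences were -0.45 (adjusted p 0.0115) and -0.26 (adjusted p 0.157), and the interaction on the main one was 0.11 (-0.22 to 0.43). CLEC4E read 5.65, 6.16 and 5.61 in ethanol and 5.95, 6.38 and 6.24 in TPA in empty vector cells, 2 overlapping groups. Its rise of 0.38 ± 0.15 (0.07 to 0.70) had an adjusted p of 0.048, which lost the call without any 1 of 9 arrays (up to 0.19), all but replicate 1 of either population in TPA and empty vector ethanol replicate 2. In EVI1-labelled cells, at 6.0, 6.06 and 6.17 in ethanol and 5.96, 6.23 and 6.16 in TPA, the difference was 0.04 (-0.27 to 0.35, adjusted p 0.88).

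Of the inhibitory receptors, CLEC4A (DCIR) rose by similar amounts in both populations. It read 3.91, 4.14 and 4.21 in ethanol and 4.79, 5.12 and 5.35 in TPA in empty vector cells, and 4.34, 4.11 and 4.10 against 4.96, 5.34 and 4.99 in EVI1-labelled cells. The treatments did not overlap in either population, while the populations overlapped in both treatments, and only the TPA means reached 5.07. The rises were 1.00 ± 0.15 (limma adjusted p 4.52e-05) and 0.91 ± 0.15 (adjusted p 1.17e-04), and the interaction was -0.09 with an interval of -0.53 to 0.36. On its other probe set the differences were 0.21 (adjusted p 0.088) and 0.44 (adjusted p 0.0014), so the call in empty vector cells rests on the brighter one.

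CLEC12A (MICL), a receptor for uric acid crystals and a common surface marker of myeloid leukaemia cells, read between 7.98 and 8.43 on all 12 arrays. Its TPA difference was -0.07 in empty vector cells (-0.27 to 0.12, limma adjusted p 0.58). In EVI1-labelled cells it read 8.33, 8.24 and 8.43 in ethanol and 8.22, 8.02 and 7.98 in TPA, a fall of 0.26 on the log2 scale (SE 0.09, adjusted p 0.0325) whose groups did not overlap. That call was lost without EVI1-labelled ethanol replicate 1 or 3 or EVI1-labelled TPA replicate 2 or 3 (adjusted p 0.075 to 0.13). Its probe sets also went opposite ways, since another one rose by 0.46 (adjusted p 7.85e-04) and 0.42 (adjusted p 0.0018) in the 2 populations. With the mean of all 3 CLEC12A probe sets the value in EVI1-labelled cells was 0.04 (adjusted p 0.68), so no direction is given for this gene.

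CLEC2B (AICL), the NKp80 ligand, was the member with the largest fall under TPA, to an 8.32-fold lower level in empty vector cells and a 4.49-fold lower one in EVI1-labelled cells. It read 11.39 on each of the 3 ethanol arrays of empty vector cells and 11.60, 11.44 and 11.59 in EVI1-labelled cells. In TPA it read 8.84, 8.18 and 7.98 in empty vector cells (8.33 ± 0.45) and 9.60, 9.45 and 9.08 in EVI1-labelled cells (9.38 ± 0.27). Every TPA array was below every ethanol array, and in TPA the EVI1-labelled arrays were all above the empty vector arrays. The differences with TPA were -3.06 ± 0.18 (limma adjusted p 5.37e-09) and -2.17 ± 0.18 (adjusted p 2.17e-07), and EVI1-labelled cells were higher in TPA by 1.04 ± 0.18 (0.65 to 1.43, adjusted p 0.0018). The difference in ethanol was 0.15 (-0.24 to 0.54, adjusted p 0.84).

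The interaction of CLEC2B, 0.89 ± 0.26 (0.34 to 1.44), missed the threshold at an adjusted p of 0.11. It passed without empty vector TPA replicate 1, at 1.14 (adjusted p 0.0072), or without EVI1-labelled TPA replicate 3, at 1.04 (adjusted p 0.039). The second CLEC2B probe set fell by 3.74 and by 3.05 on the log2 scale, and its difference between the populations in TPA was 0.85 (limma adjusted p 0.034). Its TPA means were 3.44 and 4.29, empty vector before EVI1-labelled, both under 5.07. The sizes of its falls are thus uncertain, and its difference between the populations in TPA is not shown above background. KLRF1, the gene of the CLEC2B receptor, read at a dim level, with means of 4.15 and 5.12 in ethanol and 3.65 and 4.01 in TPA, empty vector before EVI1-labelled.

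Of the glycan uptake receptors, CLEC10A alone was called. It read 4.77, 4.90 and 4.81 in ethanol and 5.08, 5.01 and 5.23 in TPA in empty vector cells, and 4.84, 4.66 and 4.96 against 5.70, 5.56 and 5.33 in EVI1-labelled cells. The TPA arrays of EVI1-labelled cells were above all other arrays, and the ethanol means lay under 5.07. The rise was 0.71 ± 0.11 in EVI1-labelled cells (limma adjusted p 8.16e-05), while in empty vector cells the difference was 0.28 (0.05 to 0.51, adjusted p 0.0515), which other settings placed on either side of the threshold. EVI1-labelled cells were higher in TPA by 0.42 (0.19 to 0.66, adjusted p 0.021), a call lost without replicate 1 or 2 of either population in TPA (adjusted p 0.064 to 0.089). The interaction, 0.43 (0.10 to 0.76), had an adjusted p of 0.22.

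CD209 read between 5.31 and 5.55 on all arrays, and no comparison was called. The TPA differences were 0.10 (-0.06 to 0.25, limma adjusted p 0.34) in empty vector cells and 0.11 (-0.05 to 0.27, adjusted p 0.29) in EVI1-labelled cells. For the signal of this probe set, these intervals exclude changes as large as those of CLEC4A. That signal was close to 5.07, and whether it stood for CD209 RNA was not tested, so no statement on the RNA follows. MRC1 stayed below 5.07 on every array, between 2.62 and 3.34, and its TPA differences were 0.07 and 0.30 (-0.01 to 0.62, adjusted p 0.13 in EVI1-labelled cells). No level of MRC1 above background was thus shown in either population after 24 h.

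Counted together, 6 of the 10 genes were called for TPA in empty vector cells, 4 higher (CLEC7A, CLEC5A, CLEC4A, CLEC4E) and 2 lower (CLEC2B, CLEC4D), where 43.2% of all genes were called, 20.7% higher and 22.5% lower. In EVI1-labelled cells 7 were called, 4 higher (CLEC7A, CLEC4A, CLEC10A, CLEC5A) and 3 lower (CLEC2B, CLEC4D, CLEC12A), against 40.0% of all genes, 19.4% higher and 20.6% lower. Both shares are above the background by 3 genes or fewer, so the counts say little about these genes as a group. Between the populations in TPA 4 were called (CLEC2B and CLEC10A higher, CLEC5A and CLEC7A lower), where 11.2% of all genes were, 5.90% higher and 5.30% lower. In ethanol only CLEC5A was, lower, where 3.27% of all genes were, 1.32% higher and 1.95% lower. The interaction was called for CLEC7A and CLEC5A, both lower, where 1.98% of all genes were called, 0.936% higher and 1.05% lower. The median log2 difference over the 10 genes was 0.19 and 0.21 for TPA in the 2 populations, 0.01 between populations in TPA and -0.04 for the interaction, and over all genes it was 0.02, 0.00, 0.01 and 0.01. The comparisons share arrays, so these counts are not independent of each other.

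**Figure D3:**
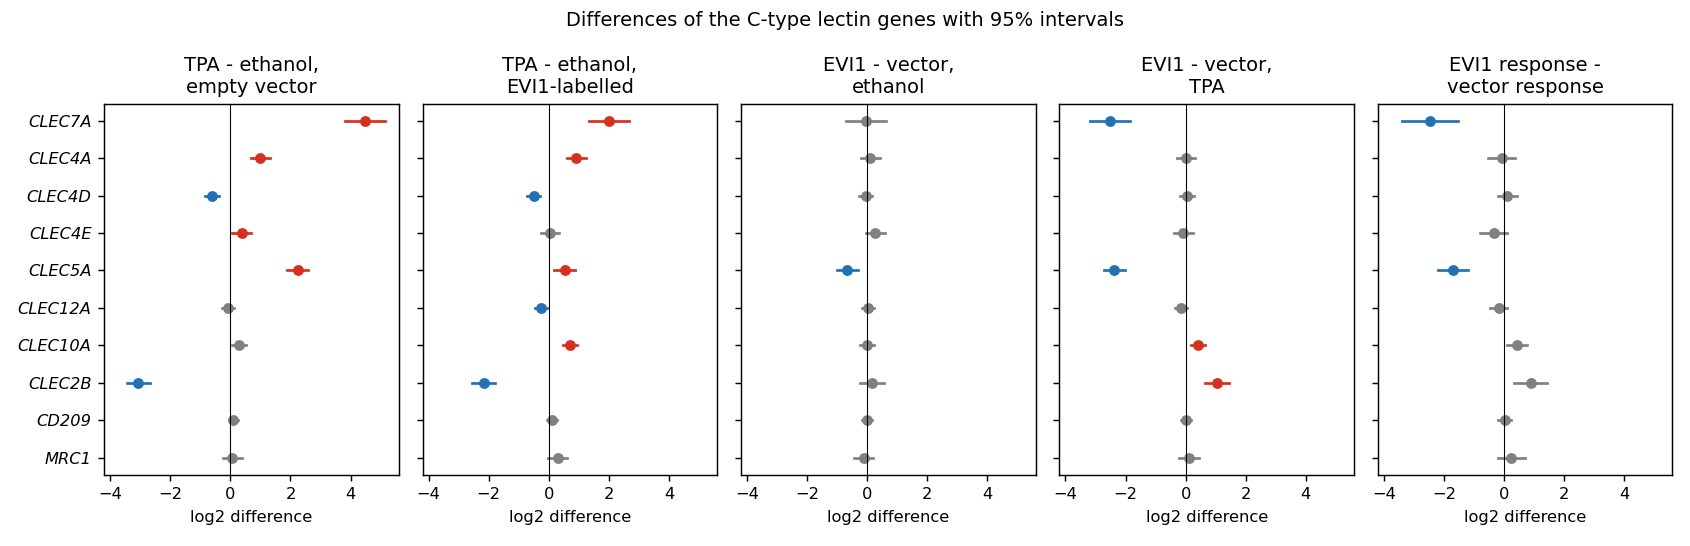
Log2 differences of the 10 genes in each of the 5 comparisons, with lines for 95% intervals from limma. Red points are called higher, blue points called lower and grey points not called at an adjusted p of 0.05. The interaction intervals of CLEC7A (-3.41 to -1.55) and CLEC5A (-2.21 to -1.22) are the called ones, and that of CLEC2B (0.34 to 1.44) is grey.

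Signs of RNA quality moved with the treatment. The log2 gap between the 3′ and 5′ probe sets of ACTB averaged 1.31 ± 0.17 over the 6 arrays of TPA-treated cells and 1.85 ± 0.13 over the 6 others (SD; exact permutation test, two-sided, p = 0.0022), and that of GAPDH was 0.40 ± 0.11 and 0.57 ± 0.15 (p = 0.048). The part of this shift in the TPA differences was not tested. Within TPA the ACTB gap was 1.17 to 1.64 in empty vector cells and 1.23 to 1.29 in EVI1-labelled cells, and these ranges overlap. The measured macrophage markers also moved with both factors. Of 6, 4 rose and 1 fell with TPA in empty vector cells, 3 rose in EVI1-labelled cells, and 3 were lower in EVI1-labelled than in empty vector cells in TPA. Their summed log2 level was 42.1 to 44.2 on empty vector TPA arrays and 37.2 to 38.3 on EVI1-labelled TPA arrays, against 29.7 to 31.0 on the ethanol arrays, and its part in the lectin differences was not tested. The interaction was called for CD14, at -2.06 (limma adjusted p 0.0018), and CD163, at -1.62 (adjusted p 0.045), and not for the other 4. Of the 9 myelomonocytic markers it was called for ANPEP, at -1.02 (adjusted p 0.039), and not for 8. Among all genes 1.98% were called. The part of these markers in the lectin differences was also not tested.

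FCER1G and TYROBP, the adaptors of CLEC4E, CLEC4D and CLEC5A, rose with TPA in both populations. Of a list of 30 signalling and adaptor genes, 25 were measured. The other 5, among them CARD9 of the CLEC7A pathway, were not analysed here. With TPA 19 rose, 4 fell and 2 were not called in empty vector cells, and 18 rose, 4 fell and 3 were not called in EVI1-labelled cells, each with a median difference of 0.81. Of all genes 20.7% and 19.4% were called higher and 22.5% and 20.6% lower, with medians of 0.02 and 0.00.

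FCER1G, the adaptor of CLEC4E and CLEC4D, read 7.79, 7.31 and 7.21 in ethanol and 12.76 to 13.03 in TPA in empty vector cells, and 7.34, 7.02 and 7.55 against 12.02, 11.83 and 12.38 in EVI1-labelled cells. In TPA the 2 populations did not overlap. The rises were 5.49 ± 0.18 and 4.77 ± 0.18, and EVI1-labelled cells were lower in TPA by a difference of -0.85 (limma adjusted p 0.0061), with an uncalled interaction of -0.72 (adjusted p 0.21). TYROBP, the adaptor of CLEC5A, rose by 4.91 and 5.04, to 11.80, 12.22 and 12.15 in empty vector cells and 11.95, 12.40 and 12.61 in EVI1-labelled cells. Its populations overlapped in TPA and its interaction was 0.14 ± 0.26 (adjusted p 0.90). CLEC5A and its adaptor thus had different interaction values, -1.71 and 0.14, a contrast between genes that was not itself tested. HCST (DAP10), an adaptor of the same kind as TYROBP, rose by 2.75 and 2.55.

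The kinases behind the receptors went both ways. FGR, a SRC family kinase, rose by 3.48 and 3.33, LYN by 0.94 and 0.83 and SRC itself by 1.11 and 0.93, whereas SYK, the kinase that receives the signal of all 4 activating receptors, fell by 0.55 and by 0.63 on the log2 scale (limma adjusted p 0.0028 and 0.0011). BTK fell by 0.54 and by 0.64, PTPN11 (SHP-2) by 0.49 and by 0.34, and VAV2, an exchange factor, by 1.49 and by 1.02. Its relatives VAV3 and VAV1 rose, VAV3 by 1.55 and 1.29 and VAV1 by 0.50 and 0.35. Downstream of CARD9, which was itself not analysed, MALT1 rose by 1.91 and 2.10 and BCL10 by 0.77 and 0.53. LSP1, a leukocyte actin-binding protein, rose by 2.00 and 2.58. PLCG2 and the phosphatase INPP5D were not called in either population, at 0.06 and 0.20 and at 0.02 and 0.03.

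Between the populations in TPA, 4 of the 25 were higher in EVI1-labelled cells, LSP1 by 1.12, NFATC1 by 0.86, PTPN6 by 0.79 and VAV2 by 0.77, and 3 were lower, with differences of -1.31 for TNFAIP3, -0.85 for FCER1G and -0.37 for LYN. In this comparison 5.90% of all genes were called higher and 5.30% lower. PTPN6 (SHP-1), the phosphatase recruited by CLEC4A and CLEC12A, rose by 0.81 and 1.44, with an interaction of 0.63 (limma adjusted p 0.073). TNFAIP3 (A20), an NF-kB target that restrains that pathway, rose by 1.69 in empty vector cells (adjusted p 9.47e-08) and differed by 0.32 in EVI1-labelled cells (adjusted p 0.077). Its interaction, -1.37 ± 0.19 (adjusted p 0.0020), was the only one called among the 25, where 1.98% of all genes were called. In ethanol HCST was higher in EVI1-labelled cells by 0.47 (adjusted p 0.015) and FGR by 0.50 (adjusted p 0.047). Neither was called without empty vector ethanol replicate 2 or 3 or EVI1-labelled ethanol replicate 1 or 3, where 3 to 4 of the 25 had an unadjusted limma p under 0.05.

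**Figure D4:**
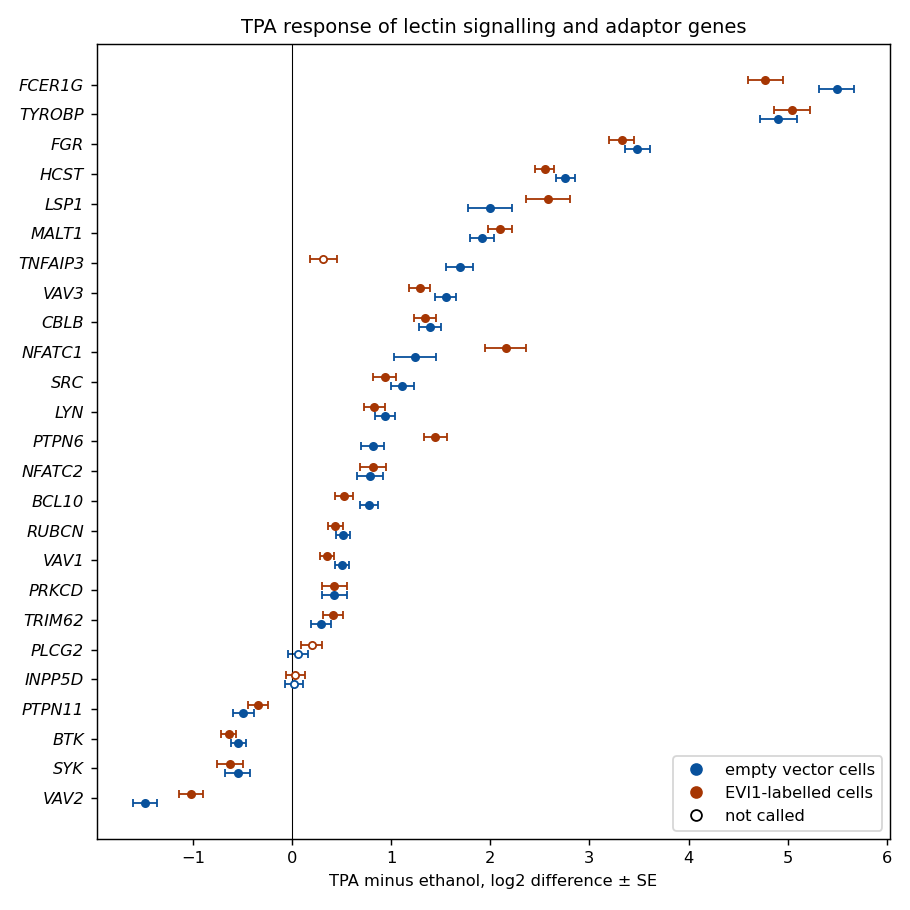
TPA response of the 25 signalling and adaptor genes, as log2 differences in each population, from limma. Open markers are not called at an adjusted p of 0.05. FCER1G and TYROBP stand at the top with rises of 4.77 to 5.49, and TNFAIP3 separates the populations at 1.69 and 0.32.

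Other genes with a C-type lectin-like domain were mostly dim. Of a list of 48, 38 were measured and 18 exceeded 5.07 in at least 1 group. TPA was called higher for 7 and lower for 3 in empty vector cells and for 8 and 3 in EVI1-labelled cells, with medians of 0.050 and 0.045. The share called higher was near that of all genes, 20.7% and 19.4%, and the share called lower was below the 22.5% and 20.6% of all genes, so the counts say nothing particular of this list. OLR1 (LOX-1), a scavenger receptor for oxidised lipoprotein, rose by 6.20 ± 0.25 and 5.02 ± 0.25, and its interaction of -1.18 ± 0.35 was not called (limma adjusted p 0.13). CD69, an early activation antigen, rose by 2.16 and 1.48, MRC2 (the collagen-binding Endo180) by 1.42 and 1.26, CD72 by 1.09 and 1.29, and CLEC11A, a secreted growth factor, fell by 1.5 and by 1.83. THBD (thrombomodulin) read 5.94 to 6.16 in ethanol and 9.34 to 9.40 in TPA in empty vector cells, a rise of 3.36. In EVI1-labelled cells it read 3.57 to 4.24 and 3.83 to 5.66, overlapping groups with means under 5.07, so its called difference of 1.04 there (adjusted p 0.020) is not shown above background. EVI1-labelled cells were lower by differences of -2.19 in ethanol (adjusted p 0.0017) and -4.51 in TPA (adjusted p 3.42e-06). Its interaction, -2.32 ± 0.46 (adjusted p 0.023), was the only one called among the 38, where 1.98% of all genes were called. That call was lost without empty vector ethanol replicate 1, 2 or 3, empty vector TPA replicate 2 or EVI1-labelled ethanol replicate 3, where 0 of the 38 were called by limma and 8 to 11 had an unadjusted p under 0.05. CD93, a related receptor, was lower in EVI1-labelled cells by -0.58 in ethanol (adjusted p 0.0087) and -1.04 in TPA (adjusted p 4.42e-05). KLRG1 fell by 0.52 and by 0.95 with TPA, and in ethanol it was higher in EVI1-labelled cells by 0.48 (limma adjusted p 0.011). In TPA, CD72 and LY75 were higher in EVI1-labelled cells, by 0.55 and 0.42 (limma adjusted p 0.045 and 0.015). They were the 2 called higher there and 5 were lower, where 5.90% of all genes were called higher and 5.30% lower.

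CLEC7A lies in the lectin gene cluster of chromosome 12, and its neighbours differed among themselves. Of the 10 protein-coding genes on either side, a window chosen after the data were seen, 13 were measured. CLEC1A, CLEC1B and CLEC12B, the nearest measured genes on 1 side, were not called in any comparison and had group means of 3.34 to 5.08. OLR1 and TMEM52B, the nearest on the other, rose with TPA in both populations, TMEM52B by 1.96 ± 0.15 and 0.74 ± 0.15. TMEM52B was lower in EVI1-labelled cells in TPA by a difference of -1.19 (limma adjusted p 1.94e-04) and had an interaction of -1.21 ± 0.22 (adjusted p 0.012). GABARAPL1, next to it, rose by 0.97 and 0.98 with an interaction of 0.01. CLEC2B, in the same window, fell, and the values of CLEC12A are given above. The KLRC genes in the window are close copies of each other, so their probe sets may share signal, and they are not described further.

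**Figure D5:**
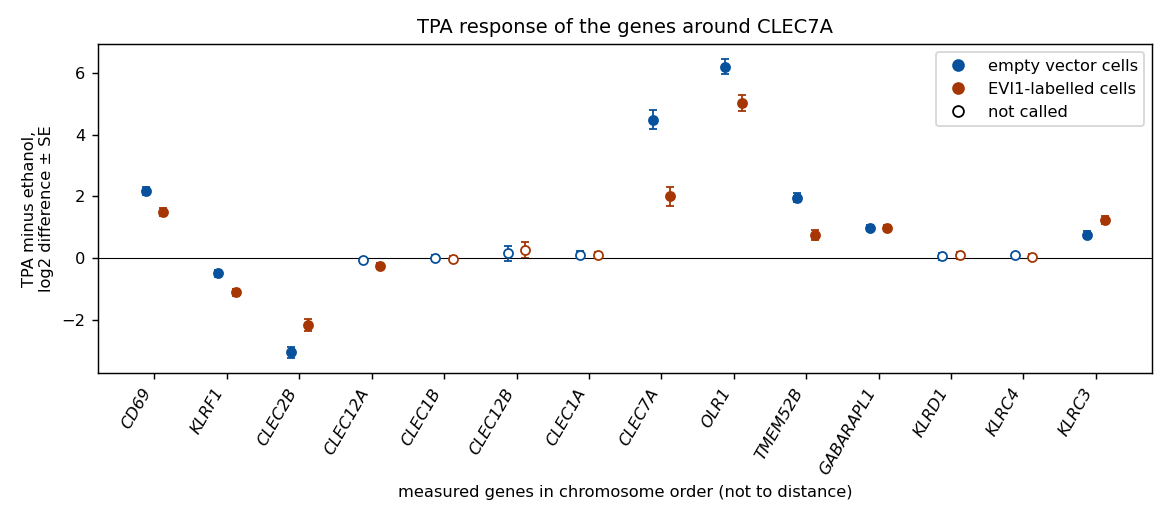
Log2 TPA response in each population, with bars for ± SE from limma, for CLEC7A and the 13 measured genes among the 10 protein-coding genes on either side, in their order along chromosome 12. The response ranges from -3.06 at CLEC2B to 6.20 at OLR1 in empty vector cells, and open markers are not called.

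The genes whose values followed CLEC7A most closely over the 12 arrays were BBOX1, CCL20, IL1RN, RNASE6 and FMNL2. After each gene was centred on its own mean, their root mean square distances from CLEC7A were 0.33, 0.41, 0.46, 0.49 and 0.50 on the log2 scale. As a description of genes picked for this likeness, CCL20, a chemokine, had means of 6.07 and 6.01 in ethanol and 10.59 and 8.11 in TPA, empty vector before EVI1-labelled. IL1RN, the interleukin-1 receptor antagonist, had means of 5.74, 5.59, 10.56 and 8.38 in the same order. RNASE6, an antimicrobial ribonuclease, had 5.13, 5.07, 9.21 and 7.76. These 3 share with CLEC7A a high level in empty vector cells under TPA and an intermediate one in EVI1-labelled cells. For the 8 other members above 5.07, none of the 40 nearest genes was on one of the lists or near more than 1 member.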

How the data were processed

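The authors deposited log2 expression values from RMA, and the submitters' processing notes name Affymetrix Expression Console 1.3. They come from 250 ng of total RNA per array, per the labels' protocols. RMA brings the arrays to 1 distribution, and dim differences are compressed. No source used here says if all 12 arrays entered 1 RMA run. Of 54675 probe sets, 62 were controls, 41091 named 1 gene, 1801 several and 11721 none, and only those with 1 gene were used. The number of arrays limits the precision. limma 3.58.1 in R 4.3.3 fitted 4 group means over all 12 arrays, with two-sided moderated tests (8 residual and 5.22 prior degrees of freedom) and Benjamini-Hochberg adjustment over 19775 genes at 0.05. The fit was checked on simulated data. Summaries used Python 3.11.15.

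The members and lists were chosen with earlier results of these data known. Named genes were the 10 members, MECOM, up to 4 raised and 4 lowered called genes of each list per comparison whose higher group mean exceeded 5.07, and the 5 genes nearest CLEC7A. Genes of the window around CLEC7A and MALT1, BCL10, PLCG2, INPP5D, SRC, VAV1, VAV3 and the markers are named outside that rule and were chosen after their values were seen. The labels use the same replicate numbers in every group. Deviations of same-numbered arrays from the group means correlated at 0.415, 0.130 and 0.151 between the populations in TPA, each over 0.1. They were 0.157, 0.105 and 0.079 for TPA in empty vector cells and 0.145, 0.091 and 0.208 in EVI1-labelled cells. Between the populations in ethanol they were 0.176, 0.143 and 0.075. By the cut of 0.1 the numbers were taken as pairs between the populations in TPA only, since no label names a shared day. All these correlations were positive, and whether the numbers mark a batch shared by all groups was not tested. The p-values printed above come from the fit without a replicate block. With the block the limma adjusted p of CLEC7A between the populations in TPA was 3.93e-04, against 1.23e-04. Alternatives were other probe set rules, array centring, a filter on dim genes, a trended robust prior, a replicate block, only the groups compared, and each array left out.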

Additional observations from a re-analysis of the deposited data

Results flagged for a closer look

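The response to TPA differed between the populations for 6 genes named above, by the interaction test. That count leaves aside the markers CD14, CD163 and ANPEP, whose called interactions are given above, and the 5 genes nearest CLEC7A. Those 5 were picked for sharing the pattern of CLEC7A. Their interactions, from -2.43 for CCL20 to -1.39 for RNASE6, were also called and are not counted here. The EVI1-labelled response minus the empty vector response was -2.48 for CLEC7A, -1.71 for CLEC5A, -1.37 for TNFAIP3, -2.32 for THBD, -1.21 for TMEM52B and -0.70 for CD1C on the log2 scale. All 6 rose with TPA in empty vector cells, with a smaller difference among EVI1-labelled cells that was not called for TNFAIP3. For THBD both EVI1-labelled means lay under 5.07 with overlapping groups, and the call was lost without any 1 of 5 arrays.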

How the results depend on the processing

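For the 10 lectins, settings other than leaving out an array kept the side of the threshold in 325 values, with 6 calls lost, 3 gained and 1 reversed. The reversed call was that of CLEC12A with TPA in EVI1-labelled cells, at 0.042 with the mean of all probe sets. Uncalled values that changed sign are counted as kept, such as the CLEC4A interaction, at -0.09 to 0.07 over these settings. With each probe set tested on its own, 0 of the 10 were called by limma between populations in ethanol (1 at an unadjusted p under 0.05), against 1, and 1 of the 25 signalling genes, against 2. That count was also 1 with arrays centred on their medians and with only the groups compared, which also gave 2 in place of 7 of the 38 other lectin-like genes between populations in TPA. A trended robust prior gave 2 in place of 1 signalling gene and 0 in place of 1 other lectin-like gene for the interaction (10 at an unadjusted p under 0.05). With the replicate block every lectin call of the 10 held, with 6, 7, 1, 4 and 2 called in the 5 comparisons. Between populations in TPA, where the numbers were taken as pairs, the other lectin-like genes went from 7 to 8 (gaining KLRF1), and with TPA in EVI1-labelled cells from 11 to 12 (gaining FCER2). The interaction was called for 2 signalling genes (gaining PTPN6) and 3 other lectin-like genes (gaining KLRF1 and OLR1). Leaving out each array in turn kept 563 values on their side, with 30 calls lost and 7 gained, and the 10 gave 5 to 7 calls for TPA in either population, 0 to 1 and 3 to 4 between populations in ethanol and TPA, and 2 to 3 for the interaction. The signalling genes gave 21 to 23, 20 to 23, 0 to 3, 5 to 7 and 1 to 2, and the other lectin-like genes 10 to 11, 9 to 12, 3 to 4, 3 to 7 and 0 to 2, in the same order. Except where a value shows it, the cause was not tested. The interaction cannot be fitted on 2 groups alone. Signal near background limits CLEC7A in ethanol, CLEC4A, CLEC4D, CLEC10A, CD209 and MRC1.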
